A study of Mus musculus with 11 samples.

Results

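Voltage-gated sodium channel subunits were compared between the carotid body, the adrenal medulla and the superior cervical ganglion of C57B6 mice. The members are 9 listed genes, Scn1a, Scn3a, Scn7a, Scn8a, Scn9a, Scn10a, Scn2b, Scn3b and Scn4b. Each is represented by the array row that pairs with exactly 1 gene symbol and has the highest mean over the 11 arrays, and all 9 were measured, out of 30142 genes in the series. The carotid body is the arterial oxygen sensor, the adrenal medulla holds the hormone-secreting chromaffin cells, and the ganglion holds sympathetic neurons. Total RNA was hybridised on 3 arrays for carotid body, 4 for adrenal medulla and 4 for ganglion, from wild-type mice of both sexes aged 2 months, with no treatment named in the labels. Tissue of 10 mice was pooled for a carotid body replicate, and of 3 mice for an adrenal medulla or ganglion replicate. All 3 tissues are whole organs of mixed cell content, so fewer cells of a type and less RNA per cell cannot be told apart in any value below.

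Sodium channels open when the membrane depolarises and carry the rising phase of the action potential. The alpha subunit forms the pore, the voltage sensors and the fast inactivation gate, and the smaller beta subunits, which are adhesion proteins with an immunoglobulin fold, change gating and surface expression. In chromaffin cells such channels help turn a depolarisation into calcium entry and catecholamine release, and in sympathetic neurons they drive the spikes that travel along axons. Scn7a differs from the other alpha genes because its product, Nax, is not opened by voltage and is known as a sodium sensor of glia.

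In the RefSeq gene table of GRCm38.p6 the sodium channel genes stand in groups. On chromosome 2, Scn3a is the neighbour of Scn2a among protein-coding genes, and Scn1a, Scn9a and Scn7a follow one another. On chromosome 9, Scn2b and Scn4b are neighbours, Scn10a is the neighbour of Scn11a, and Scn3b lies apart. Scn8a is on chromosome 15. A promoter was matched by symbol in RefSeq's table for 7 of the 9 members (8 entries, with 2 for Scn8a), and not for Scn3a and Scn3b. The 250 bases before the RefSeq start are shown for 4 genes, each written 5′ to 3′ on the gene's own strand. Scn9a, Scn1a and Scn2b were the members with the largest differences towards ganglion, and Scn7a was the member that was highest in carotid body. Capitals mark a match, on either strand, to CCAAT, to the GC box GGGCGG or to GCGTG, a core form of the hypoxia response element. In Scn7a the GC box and GCGTG matches lie on the opposite strand and overlap.
Scn9a, chr2:66634963-66635212, minus strand: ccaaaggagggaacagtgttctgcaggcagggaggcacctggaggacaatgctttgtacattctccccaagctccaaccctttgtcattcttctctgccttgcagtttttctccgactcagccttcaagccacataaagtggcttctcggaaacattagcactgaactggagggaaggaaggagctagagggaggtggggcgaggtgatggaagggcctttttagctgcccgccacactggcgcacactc
Scn1a, chr2:66440838-66441087, minus strand: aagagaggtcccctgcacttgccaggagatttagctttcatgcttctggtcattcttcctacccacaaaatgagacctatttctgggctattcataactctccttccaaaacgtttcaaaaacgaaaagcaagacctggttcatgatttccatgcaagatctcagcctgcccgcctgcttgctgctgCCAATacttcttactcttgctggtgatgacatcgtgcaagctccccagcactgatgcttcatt
Scn2b, chr9:45117626-45117875, plus strand: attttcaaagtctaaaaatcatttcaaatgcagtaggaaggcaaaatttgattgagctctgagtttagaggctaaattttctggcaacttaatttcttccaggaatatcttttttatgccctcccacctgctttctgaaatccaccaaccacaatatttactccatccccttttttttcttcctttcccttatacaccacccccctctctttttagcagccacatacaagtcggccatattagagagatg
Scn7a, chr2:66784911-66785160, minus strand: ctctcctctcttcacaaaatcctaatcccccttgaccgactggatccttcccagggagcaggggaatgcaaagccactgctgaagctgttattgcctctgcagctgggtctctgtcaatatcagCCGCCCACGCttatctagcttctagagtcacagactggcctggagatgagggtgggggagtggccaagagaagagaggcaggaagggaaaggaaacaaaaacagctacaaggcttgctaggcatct
The same windows were searched on both strands for the TATA box (TATAAA), for the other core form of the hypoxia response element (ACGTG) and for the first part of the RE1 silencer element (TTCAGCACC), and none of the 8 member entries held one. Of all 32851 promoter entries, 12.4% held the TATA box, 16.6% the other hypoxia core and 0.301% the RE1 part. GCGTG was found in 5 of the 8 member entries (both of Scn8a, and those of Scn4b, Scn7a and Scn10a) and in 28.2% of all. CCAAT was found in Scn1a and Scn4b and in 33.8% of all, and GGGCGG in Scn7a and in 32.7% of all. The windows of Scn9a and Scn2b, printed without capitals, held none of the motifs searched.

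Values are the deposited log2 signals, in which a step of 1 is a 2-fold step. A gene was called different at an adjusted p under 0.05 and a difference of at least 1. The adjusted p is limma's moderated test with Benjamini-Hochberg adjustment over all genes. Signals under a background bound, 5.38 in carotid body, 5.35 in adrenal medulla and 5.45 in ganglion, were taken as not distinguishable from genes expected to be silent. Of the 9 members, 7 had a mean above the bound in every tissue, while Scn10a and Scn4b were under it in all 3 tissues. Of all genes, 56.6% were above it in carotid body, 54.3% in adrenal medulla and 54.3% in ganglion. Signals of different genes are not set against each other, since each cluster has its own probes. Between carotid body and ganglion 6 of the 9 members were called, 5 lower and 1 higher in carotid body, where 13.9% of all genes were called (8.28% lower and 5.61% higher). Between adrenal medulla and ganglion 6 members were called, all lower in adrenal medulla, where 13.2% of all genes were called (7.5% lower and 5.72% higher). Between carotid body and adrenal medulla 3 members were called, 2 of them higher and the other lower in carotid body, where 11% of all genes were called (6.06% higher and 4.95% lower). The members' median difference was -2.23 for carotid body minus ganglion and -2.74 for the adrenal comparison with ganglion, beside medians of -0.02 and -0.08 over all genes. For carotid body minus adrenal medulla it was 0.33, beside 0.05 over all genes. Among the 19046 protein-coding genes, 5.29% were called higher and 6.40% lower in that comparison, 5.35% higher and 10.4% lower in carotid body relative to ganglion, and 7.08% higher and 9.18% lower in adrenal medulla relative to ganglion. The 2 comparisons with ganglion share the ganglion arrays, and likewise each tissue serves in 2 comparisons.

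**Figure D1:**
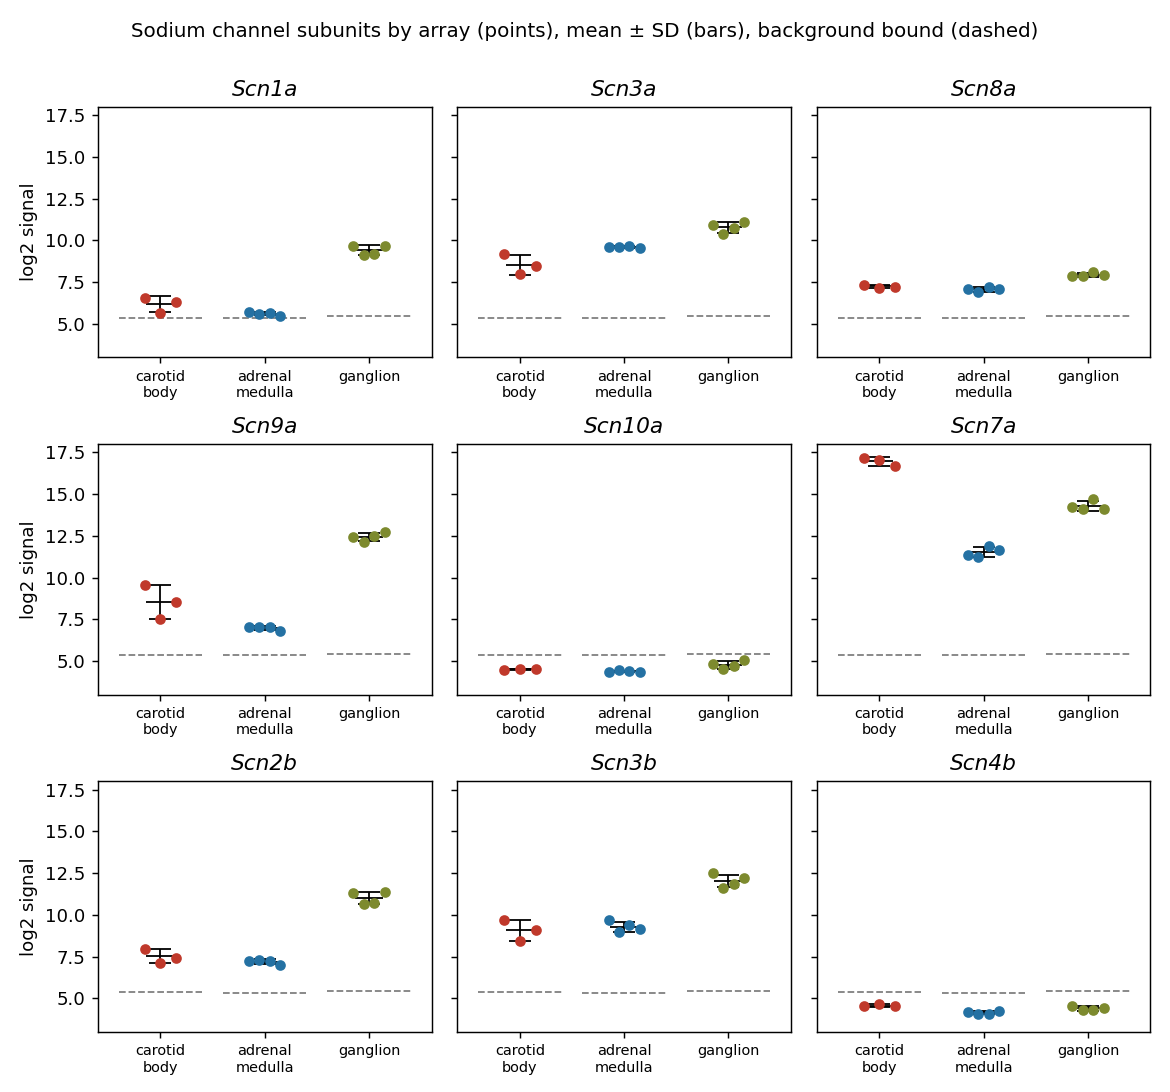
Log2 signal of each member (vertical axis) on 3 carotid body, 4 adrenal medulla and 4 ganglion arrays; points are arrays, bars are the mean ± SD, and dashed lines are the background bound of each tissue. Scn7a is highest in carotid body, Scn1a, Scn9a, Scn2b and Scn3b stand well above both other tissues in ganglion, and Scn10a and Scn4b lie under the bound throughout.

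Among the neuronal alpha subunits, Scn9a encodes Nav1.7, a channel of sympathetic and nociceptive neurons that amplifies small depolarisations. Scn9a (transcript cluster TC0200003680.mm.1) read 9.58, 7.50 and 8.54 in carotid body, 7.02, 7.03, 7.07 and 6.79 in adrenal medulla and 12.41, 12.13, 12.47 and 12.73 in ganglion. No array of one tissue overlapped with those of another, and the carotid body arrays were the most spread of the 3 tissues. The means were 8.54 ± 1.04 in carotid body (SD, n = 3), 6.98 ± 0.13 in adrenal medulla and 12.44 ± 0.25 in ganglion (SD, n = 4 each). Scn9a was 14.9-fold lower in carotid body than in ganglion (log2 difference -3.90, SE 0.37, limma adjusted p = 1.38e-05). It was 44.0-fold lower in adrenal medulla than in ganglion (log2 -5.46, SE 0.34, limma adjusted p = 3.33e-07), where it had the largest difference of the 9 members. Carotid body exceeded adrenal medulla 2.95-fold (log2 1.56, SE 0.37, limma adjusted p = 0.00777). The fit takes 1 spread per gene for all 3 tissues, so this SE and p understate the wider spread of the carotid body arrays. The difference of 1.56 was 1.04 without carotid body replicate 1 and 2.08 without replicate 2, and it was called in both cases.

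Scn1a encodes Nav1.1, a channel of the cell body and axon initial segment known from inhibitory neurons. It read 6.57, 5.67 and 6.33 in carotid body, 5.69, 5.61, 5.67 and 5.47 in adrenal medulla and 9.66, 9.12, 9.21 and 9.69 in ganglion (cluster TC0200003674.mm.1). The ganglion arrays stood apart from all others, whereas carotid body replicate 2 lay inside the adrenal medulla range. Carotid body was 9.39-fold lower than ganglion (log2 -3.23, SE 0.21, limma adjusted p = 1.20e-06) and adrenal medulla 14.0-fold lower (log2 -3.81, SE 0.19, limma adjusted p = 6.82e-08). The adrenal medulla mean of 5.61 was so near the bound of 5.35 that the adrenal fold could not rise far. Between carotid body and adrenal medulla the difference of 0.58 (95% interval 0.12 to 1.04) was not called (limma adjusted p = 0.0617).

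Scn3a encodes Nav1.3, a channel of the developing nervous system that rodent chromaffin cells also use. Its signal was 9.18, 8.0 and 8.46 in carotid body, 9.60, 9.60, 9.65 and 9.52 in adrenal medulla and 10.93, 10.36, 10.72 and 11.09 in ganglion (cluster TC0200003666.mm.1). The tissues did not overlap, with ganglion highest, adrenal medulla between and carotid body lowest. This is the one member called lower in carotid body relative to adrenal medulla (2.06-fold, log2 difference -1.05, SE 0.24, limma adjusted p = 0.00739), and the call sits at the 2-fold limit. Its SE also rests on the spread shared by the tissues, where the SD was 0.60 in carotid body and 0.06 in adrenal medulla. Without carotid body replicate 2 the difference was -0.77 and the call was lost. Scn3a was also 4.68-fold lower in carotid body than in ganglion (limma adjusted p = 3.78e-05) and 2.27-fold lower in adrenal medulla than in ganglion (limma adjusted p = 0.00175).

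Scn8a encodes Nav1.6, the main channel of nodes of Ranvier and mature axon initial segments. It read 7.35, 7.18 and 7.21 in carotid body, 7.07, 6.90, 7.23 and 7.08 in adrenal medulla and 7.88, 7.84, 8.09 and 7.93 in ganglion (cluster TC1500001056.mm.1). Every ganglion array exceeded every other array, but the steps were under 2-fold. The difference was -0.68 for carotid body minus ganglion (95% interval -0.89 to -0.48, limma adjusted p = 0.000177) and -0.86 for adrenal medulla minus ganglion (95% interval -1.05 to -0.67, limma adjusted p = 1.49e-05). Carotid body and adrenal medulla overlapped, with a difference of 0.18 (95% interval -0.03 to 0.38, limma adjusted p = 0.194).

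Scn10a encodes Nav1.8, the tetrodotoxin-resistant channel of nociceptors. It stayed at 4.46 to 4.54 in carotid body, 4.36 to 4.46 in adrenal medulla and 4.50 to 5.07 in ganglion (cluster TC0900003245.mm.1), so every array was under its bound and no fold is given. Markers of sensory neurons were measured beside it. Of 9, 3 were above the bound in carotid body, 2 in adrenal medulla and 4 in ganglion, and Pou4f1, Trpv1, Prdm12, Tlx3 and Mrgprd were under it in all 3 tissues. Isl1 and Avil, which are also expressed in sympathetic neurons, were above it in all 3. Runx1 was above it in carotid body (mean 6.23) and ganglion (mean 5.50), and P2rx3 in ganglion alone (mean 5.59). Both ganglion means were near the bound of 5.45, with 3 of 4 arrays above it for Runx1 and 2 of 4 for P2rx3.

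Scn7a followed another order. It read 17.18, 17.07 and 16.68 in carotid body, 11.38, 11.22, 11.91 and 11.65 in adrenal medulla and 14.23, 14.13, 14.73 and 14.13 in ganglion (cluster TC0200003682.mm.1). The tissues were fully separate, and here the carotid body arrays differed from each other by 0.50 only. Means were 16.97 ± 0.26 in carotid body (SD, n = 3), 11.54 ± 0.30 in adrenal medulla and 14.30 ± 0.29 in ganglion (SD, n = 4 each). Carotid body was 6.37-fold above ganglion (log2 2.67, SE 0.20, limma adjusted p = 3.03e-06) and adrenal medulla was 6.79-fold below ganglion (log2 -2.76, SE 0.18, limma adjusted p = 5.59e-07). Carotid body minus adrenal medulla was 5.44 (SE 0.20, limma adjusted p = 1.31e-08), from 5.28 to 5.58 over all alternatives run. In carotid body, Scn7a alone of the members was called higher than in ganglion, although its neighbour Scn9a was lower there.

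Marker lists of other cell types were measured beside Scn7a. The mean level over 10 glial and Schwann cell genes was 9.95 to 10.28 in carotid body, 7.93 to 8.04 in adrenal medulla and 9.87 to 10.36 in ganglion, with 10, 9 and 8 of them above the bound in these tissues. Of the 10, 1 was called between carotid body and ganglion, lower in carotid body, and between carotid body and adrenal medulla 7 were higher in carotid body. In these comparisons 13.9% and 11% of all genes were called. All 6 fibroblast genes and 7 of 8 smooth muscle and pericyte genes were called higher in carotid body than in ganglion, as were 7 of 7 endothelial and 3 of 4 adipocyte genes. Relative to adrenal medulla, 6 of 6 fibroblast, 6 of 8 smooth muscle and pericyte, 4 of 7 endothelial and 3 of 4 adipocyte genes were higher in carotid body, and 3 endothelial genes were lower. The adipocyte mean was 9.17 to 9.59 in carotid body, 6.46 to 6.53 in adrenal medulla and 6.44 to 6.81 in ganglion. The fibroblast mean was 14.48 to 14.58 in carotid body, 9.24 to 9.45 in adrenal medulla and 10.41 to 10.78 in ganglion. The part of any of these cells in the Scn7a result was not tested.

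Both beta subunits above the bound were called lower in carotid body and in adrenal medulla, each set against ganglion. Scn2b encodes a subunit that is linked to the alpha chain by a disulfide bond. It read 7.97, 7.13 and 7.45 in carotid body, 7.24, 7.30, 7.24 and 6.98 in adrenal medulla and 11.32, 10.66, 10.74 and 11.37 in ganglion (cluster TC0900000534.mm.1). All ganglion arrays were far above the rest, and carotid body and adrenal medulla overlapped. The signal was 11.4-fold lower in carotid body than in ganglion (log2 -3.51, SE 0.22, limma adjusted p = 1.03e-06) and 14.2-fold lower in adrenal medulla than in ganglion (log2 -3.83, SE 0.21, limma adjusted p = 1.05e-07). Carotid body minus adrenal medulla was 0.33 (95% interval -0.17 to 0.82, limma adjusted p = 0.322).

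Scn3b encodes a subunit that binds the alpha chain without a covalent bond. Its signal was 9.70, 8.43 and 9.12 in carotid body, 9.68, 8.99, 9.37 and 9.15 in adrenal medulla and 12.48, 11.63, 11.86 and 12.20 in ganglion (cluster TC0900000452.mm.1). Ganglion again stood apart, while the other tissues overlapped and carotid body replicate 2 was below every adrenal medulla array. It was 7.77-fold lower in carotid body than in ganglion (limma adjusted p = 1.87e-05) and 6.70-fold lower in adrenal medulla than in ganglion (limma adjusted p = 1.27e-05). Carotid body minus adrenal medulla was -0.21 (95% interval -0.86 to 0.43, limma adjusted p = 0.641) and changed sign to 0.11 without carotid body replicate 2.

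Scn4b, whose product can act as an open-channel blocker behind resurgent current, read 4.54 to 4.65 in carotid body, 4.07 to 4.26 in adrenal medulla and 4.30 to 4.57 in ganglion (cluster TC0900000535.mm.1). All arrays were under the bound. Its neighbour Scn2b was above the bound in every tissue.

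**Figure D2:**
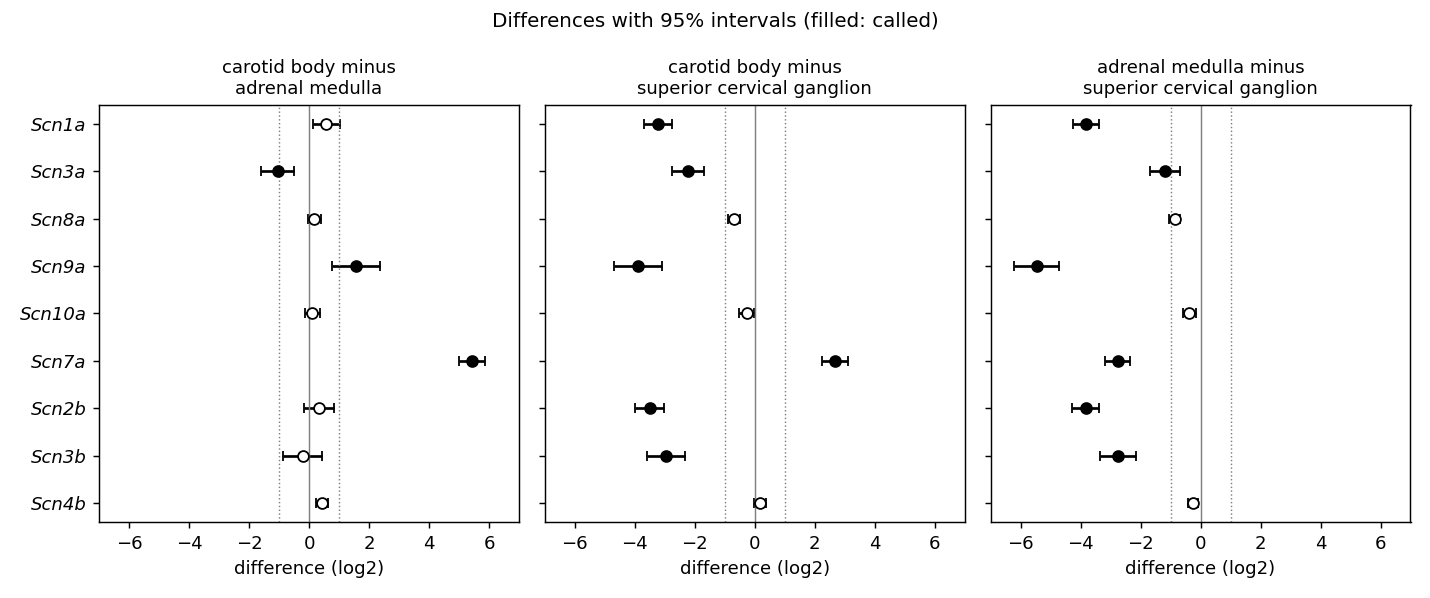
Log2 differences (horizontal axis) with 95% intervals for each member in the 3 comparisons; filled points were called, and dotted lines mark a 2-fold difference. The middle and right panels show Scn1a, Scn9a, Scn2b and Scn3b between -5.46 and -2.74, and Scn7a at 2.67 in carotid body and -2.76 in adrenal medulla relative to ganglion.

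The carotid body arrays differed among themselves in an order that several gene lists shared. Replicate 1 was the highest and replicate 2 the lowest for 6 of the 9 members (Scn1a, Scn3a, Scn8a, Scn9a, Scn2b and Scn3b), an order found in 14.4% of all genes. The same order held for 10 of 12 neuron markers, 8 of 11 chromaffin and glomus cell markers and 7 of 9 channel modulators, and for 4 of 10 glial and 0 of 8 smooth muscle and pericyte markers. Expressed as a percent of the ganglion mean on the linear scale, Scn9a was at 13.8%, 3.28% and 6.70% on carotid body replicates 1, 2 and 3. Tubb3, a neuronal tubulin, was at 13.0%, 1.98% and 5.72% on the same arrays, and Prph, the intermediate filament of peripheral neurons, at 14.2%, 1.95% and 5.13%. Other neuron markers lay elsewhere, such as Gap43 of growing axons at 36.0%, 26.4% and 26.4%, and Rbfox3, a splicing factor of neurons, at 54.1%, 41.8% and 63.0%. The Rbfox3 signal was near the bound, with a mean of 5.70 in carotid body. Scn1a was at 13.9%, 7.42% and 11.7% and Scn2b at 12.1%, 6.75% and 8.38%. On replicate 2 Scn1a read 5.67, near the bound of 5.38. Scn7a did not share the order of replicate 1 highest and replicate 2 lowest.

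On the adrenal medulla arrays Scn9a was at 1.99% to 2.43% of the ganglion mean, Scn3b at 12.1% to 19.4% and Scn3a at 41.8% to 45.9%. The neuron markers were spread more widely there. Tubb3 was at 0.116% to 0.170% and Prph at 0.123% to 0.225%, whereas the synaptic protein gene Snap25 was at 31.8% to 50.2% and Rbfox3 at 54.5% to 63.0%. Rbfox3 averaged 5.87 in adrenal medulla and 6.63 in ganglion, so near the bound that its percent could not fall far. The mean level over the 12 neuron markers was 10.12 to 11.70 in carotid body, 8.86 to 9.26 in adrenal medulla and 13.55 to 13.86 in ganglion. Compared with ganglion 11 of the 12 were called lower in carotid body and 11 in adrenal medulla. In these comparisons 8.28% and 7.5% of all genes were called lower. All 12 neuron markers had a mean above the bound in every tissue. Of 11 chromaffin and glomus cell markers, 11 were above it in carotid body, 11 in adrenal medulla and 10 in ganglion. Carotid body replicate 2 also carried striated muscle genes, with a list mean of 7.13 against 5.62 and 5.77 on replicates 1 and 3. All 8 adrenal cortex genes were above the bound in adrenal medulla, and their list mean was 4.90 to 5.29 in carotid body, 15.14 to 15.64 in adrenal medulla and 4.78 to 5.33 in ganglion. The part of nerve, muscle or cortex tissue in the channel values was not tested.

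**Figure D3:**
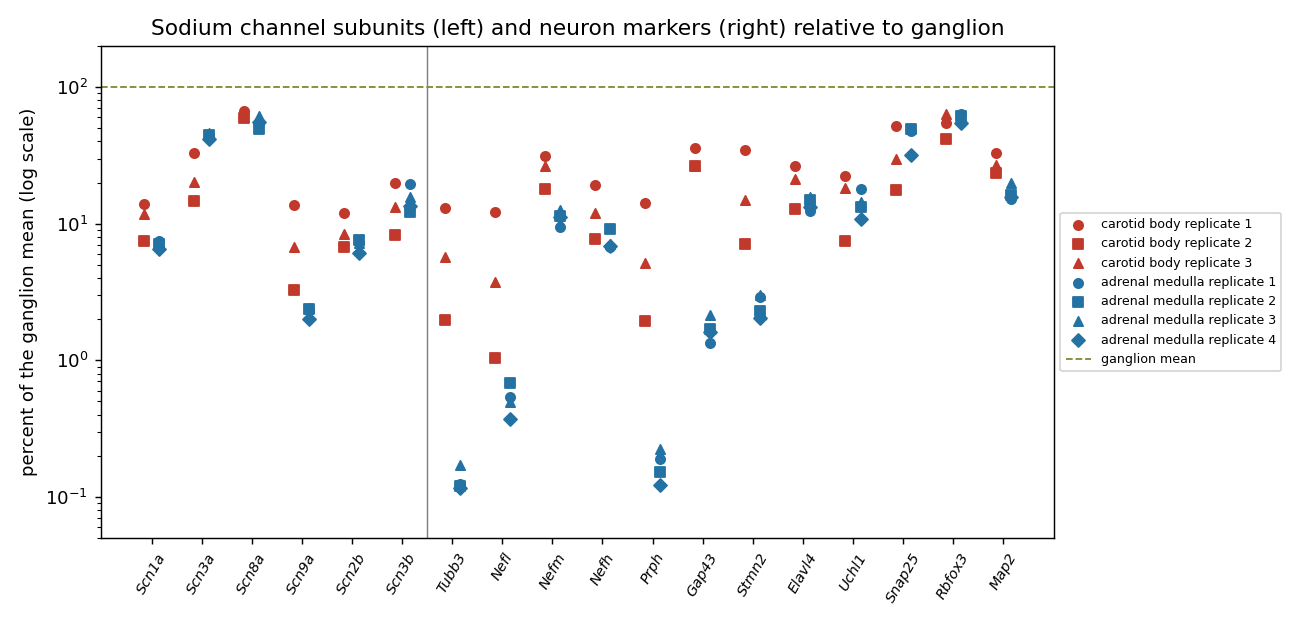
Signal of 6 members (left of the line) and 12 neuron markers (right) on each carotid body and adrenal medulla array, as a percent of the ganglion mean on a logarithmic axis; colours mark the tissue and symbols the replicate. Carotid body replicate 1 lies above replicate 2 for every gene plotted, and the adrenal medulla arrays lie between 1.99% and 61.2% for the members and between 0.116% and 63.0% for the neuron markers. The highest of these marker values are of Rbfox3, whose signal is near the bound.

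On the ganglion arrays, replicates 1 and 4 both exceeded replicates 2 and 3 for 6 members (Scn1a, Scn3a, Scn10a, Scn2b, Scn3b and Scn4b), an order shared by 34.5% of all genes. Of these, Scn10a and Scn4b were under the bound on every ganglion array, so theirs is an order of background signals. Scn7a and Scn8a were highest on replicate 3. The ranges stayed narrow, with SDs of 0.11 to 0.37 for the 9 members.

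Genes with the most similar profile were listed for the 7 members above background, by Pearson's r over the 11 arrays among 4624 protein-coding genes that were above the bound and called in at least 1 comparison. The points share arrays and fall into 3 tissues, so r is given as a description. It compares the shape of a profile and not the size of its steps. For Scn9a they were Sult4a1 (r = 0.999), Kif21a (0.998) and Apba1 (0.998). For Scn1a they were Phf24 (0.998), Rasgrp1 (0.998) and Ankrd29 (0.997). Scn2b was closest to Camsap2 (0.998), Emb (0.997) and Fam169a (0.997), and Scn3b to Lgals9 (0.996), Abhd12 (0.994) and Flot2 (0.992). Scn3a, with its intermediate adrenal level, was closest to Lonrf2 (0.997), Dpp6 (0.997) and Epm2aip1 (0.996). Scn8a was closest to 1110051M20Rik (0.989), Tnik (0.988) and Cpne2 (0.986). Scn7a had Slc24a3 (0.995), a sodium, calcium and potassium exchanger, Col5a2 (0.993), a fibrillar collagen, and Dgkh (0.993), a diacylglycerol kinase. In carotid body, adrenal medulla and ganglion, Slc24a3 averaged 7.88, 6.80 and 7.33 and Col5a2 8.06, 5.88 and 6.89, smaller steps than those of Scn7a. Dgkh had larger steps, at 15.09, 7.48 and 11.68.

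Of the other sodium channel genes, 3 are described here. Scn2a, the neighbour of Scn3a, encodes Nav1.2, a channel of unmyelinated axons. It read 7.28, 6.82 and 7.13 in carotid body, 6.48, 6.47, 6.98 and 6.56 in adrenal medulla and 9.09, 9.03, 9.15 and 9.49 in ganglion. Ganglion did not overlap with the others. Scn2a was 4.33-fold lower in carotid body than in ganglion (limma adjusted p = 3.61e-06) and 5.92-fold lower in adrenal medulla than in ganglion (limma adjusted p = 1.96e-07). Scn11a, the neighbour of Scn10a, was under the bound in carotid body (4.77 ± 0.11) and adrenal medulla (4.53 ± 0.06) and just above it in ganglion (5.57 ± 0.30). Its difference was -0.81 for carotid body minus ganglion, not called, and -1.05 for adrenal medulla minus ganglion (at least 1.17-fold, limma adjusted p = 7.66e-05), and the adrenal call was lost under 6 alternatives, with differences of -0.96 when arrays were centred on their medians and without ganglion replicate 4. Nalcn, a sodium leak channel that sets resting potential, averaged 9.51 ± 0.39 in carotid body, 10.39 ± 0.07 in adrenal medulla and 10.81 ± 0.44 in ganglion. The adrenal medulla SD includes a value repeated on replicates 1, 2 and 4. Nalcn was 2.47-fold lower in carotid body than in ganglion (limma adjusted p = 0.0010). Carotid body minus adrenal medulla was -0.88, under the limit, and passed it at -1.10 without carotid body replicate 1.

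Of 12 measured genes for channel anchors and partners at nodes and initial segments, 6 were lower and 0 higher in carotid body than in ganglion, with a median difference of -1.05 against -0.02 for all genes. In adrenal medulla 7 were lower and 1 was higher than in ganglion (median -1.48 against -0.08). Of all genes, 8.28% were called lower and 5.61% higher in carotid body, and 7.5% lower and 5.72% higher in adrenal medulla. Cntnap2, which clusters potassium channels beside nodes, was 15.95-fold lower in carotid body and 84.9-fold lower in adrenal medulla than in ganglion. Nrcam, an adhesion protein of nodes, was 15.8-fold lower in carotid body and 7.96-fold lower in adrenal medulla than in ganglion. Cntn1, an axonal contactin, was 7.30-fold lower in carotid body and 25.6-fold lower in adrenal medulla than in ganglion. Epb41l3, a membrane skeleton protein, was 4.16-fold lower in carotid body and 7.90-fold lower in adrenal medulla than in ganglion. Ank3, the ankyrin that holds sodium channels at the initial segment, was 3.54-fold lower in adrenal medulla than in ganglion. In carotid body Ank3 averaged 10.96, against 11.20 in ganglion (difference -0.24, 95% interval -0.95 to 0.47).

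Relative to adrenal medulla, 4 anchor genes were higher and 1 was lower in carotid body, where 6.06% of all genes were called higher and 4.95% lower. The higher anchor genes were Cntnap2 (5.32-fold), Cntn1 (3.51-fold), Ank3 (3.00-fold) and the spectrin Sptbn1 (2.66-fold). Tnr, an extracellular matrix protein, was 12.8-fold lower, with a mean of 5.97 for carotid body and 9.65 for adrenal medulla. Tnr was also the one anchor gene that was higher in adrenal medulla than in ganglion (3.28-fold).

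Of 9 measured intracellular modulators, 2 were lower in carotid body than in ganglion and 5 lower in adrenal medulla, with none higher. In these comparisons 8.28% and 7.5% of all genes were called lower. The median differences of the list were -0.75 and -1.15, beside -0.02 and -0.08 over all genes. Fgf14, a fibroblast growth factor homologue that binds the channel tail, was 13.6-fold lower in carotid body and 10.3-fold lower in adrenal medulla than in ganglion. Dpysl2, a collapsin response mediator that affects Nav1.7 trafficking, was 4.50-fold lower in carotid body and 6.18-fold lower in adrenal medulla than in ganglion. Nedd4l, a ubiquitin ligase that removes channels from the membrane, was 3.25-fold lower in adrenal medulla than in ganglion. S100a10, which brings Nav1.8 to the membrane in sensory neurons, was 2.80-fold lower there. No modulator of the 9 was called between carotid body and adrenal medulla, where 11% of all genes were called. With 9 genes, none called is near that share.

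Subunits of the sodium pump, which restores the gradient that the channels use, gave 8 measured genes. Of these 4 were lower and 1 higher in carotid body than in ganglion, and 5 were lower in adrenal medulla than in ganglion. The shares of all genes were 8.28% lower and 5.61% higher in carotid body, and 7.5% lower in adrenal medulla. Fxyd7, a neuronal pump regulator, was 8.81-fold lower in carotid body and 176-fold lower in adrenal medulla than in ganglion. Fxyd2 was 6.0-fold lower in carotid body and 90.5-fold lower in adrenal medulla than in ganglion. Fxyd6 was 6.69-fold lower in carotid body and 3.78-fold lower in adrenal medulla, and the pump's beta chain Atp1b1 5.45-fold and 5.93-fold lower in these tissues. Fxyd1, known from muscle and glia, was 5.22-fold higher in carotid body than in ganglion. Relative to adrenal medulla, 4 pump genes were higher in carotid body, Fxyd7 (log2 difference 4.32), Fxyd2 (15.1-fold), Fxyd1 (14.3-fold) and Atp1b2 (2.16-fold). The share of all genes called higher there was 6.06%.

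**Figure D4:**
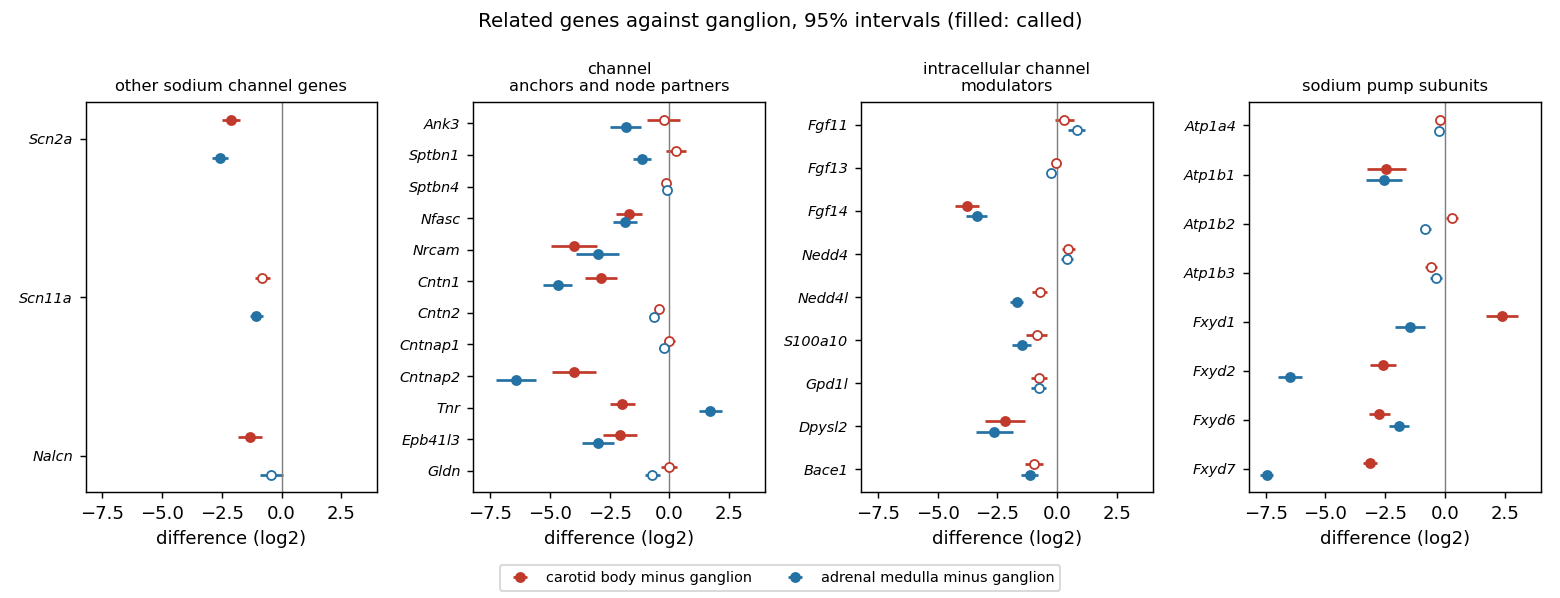
Log2 differences (horizontal axis, with 95% intervals) of the related genes for carotid body and for adrenal medulla, each minus ganglion; filled points were called. Fxyd7 and Cntnap2 reach -7.46 and -6.41 in adrenal medulla, and Fxyd1 lies at 2.38 in carotid body.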

How the data were processed

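Total RNA of 11 pools was hybridised to Affymetrix Mouse Transcriptome arrays, per the series' design text. The authors deposited log2 signals. RMA and Affymetrix Expression Console are named in the submitters' processing notes, without versions, and a genome build is not given in the sources used here. Base 2, the usual base of RMA, was assumed. Scn7a in carotid body exceeds 16, more than a 16-bit scanner can record, so folds are those of the deposited scale. A repeated value on arrays of one tissue was found for 13.1% of genes in carotid body, 26.1% in adrenal medulla and 17.1% in ganglion, Scn7a on ganglion replicates 2 and 4 among them.

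Of 65956 transcript clusters, 30604 paired with 1 symbol, 2146 with several and 33206 with none; 30142 genes remained after taking the brightest cluster for 355 genes, with 819 symbols updated through RefSeq. Tissue was the only factor in 1 limma 3.58.1 fit (R 4.3.3) over the 11 arrays, tested on simulated data. The background bound is the 95th percentile of 349 vomeronasal receptor and keratin-associated genes in each tissue. Where 1 tissue lay under it, the fold is against the bound ("at least"). Array number, 3 or 4 a tissue, limits the precision. The members and lists were chosen with earlier results of these data known. Named genes are all members, the other channel genes, up to 4 called genes of each related list and comparison with the largest difference, and the 3 closest profiles. Sptbn1 and further values of Ank3, Tnr and Fxyd1 were added after their values were seen. Alternatives were centring arrays on their medians, repeated quantile normalization, removing dim genes, testing all clusters, averaging a gene's clusters, array weights, a trended robust prior, a test against a 2-fold limit, a replicate block and leaving out each array. P-values set a difference between tissue means against the spread between pools. That spread was estimated once per gene over all 3 tissues and moderated across genes.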

Additional observations from a re-analysis of the deposited data

Results flagged for a closer look

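A single array stood far from the other 3 of its tissue in 3 of 62 groups examined, where chance gives about 1 in 20. Nalcn read 10.49 on adrenal medulla replicate 3 and 10.35 on each of the other 3 arrays. Those 3 arrays held 1 repeated value, also found on ganglion replicate 2. Any different value on replicate 3 would therefore have been flagged, however small the gap. Fxyd7 read 14.43 on ganglion replicate 3 and 14.80 to 14.84 on the others. Atp1b1 read 17.96 on ganglion replicate 4 and 17.65 to 17.69 on the others. No member gene was among them.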

How the results depend on the processing

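Calls of the members were recomputed under 9 alternatives and without each of the 11 arrays. Between carotid body and adrenal medulla the count of 3 called members became 1 (Scn7a) in limma's test against a 2-fold limit, and 2 to 3 with an array left out. Between carotid body and ganglion it was 6 throughout, and between adrenal medulla and ganglion 5 or 6 (5 with repeated quantile normalization or the 2-fold test, where Scn3a was not called) and 6 to 6 with an array left out. Deviations of same-numbered arrays correlated at -0.17 to 0.25 across genes, so the numbers were not taken as pairs. With the replicate number as a block the counts were 3, 6 and 6, so the block changed no call. Scn3a between carotid body and adrenal medulla was lost without carotid body replicate 2 (-0.77) and in the 2-fold test, as was Scn9a in that test (adjusted p = 0.992). Differences near 0 changed sign for Scn10a (-0.049 centred on medians, -0.0077 with quantile normalization) and Scn3b (-0.52 to 0.11 with an array left out, 0.11 without carotid body replicate 2). Scn11a in adrenal medulla minus ganglion was not called under 6 alternatives (for example -0.96 centred on medians). Nalcn in carotid body minus adrenal medulla was called centred on medians (-1.03), with array weights (-1.0) and without carotid body replicate 1, and its carotid body minus ganglion call was lost in the 2-fold test. Centring moved the median of all genes between carotid body and adrenal medulla by more than 0.1, to -0.10 against 0.05, and turned the split of all calls to 1577 higher and 1966 lower against 1828 and 1492. Repeated quantile normalization gave 2150 higher and 2048 lower between carotid body and ganglion, against 1691 and 2496, and 2218 and 1896 between adrenal medulla and ganglion, against 1725 and 2262. All calls between carotid body and adrenal medulla numbered 809 higher and 532 lower in the 2-fold test, and 3236 and 1921 with all transcript clusters. Between carotid body and ganglion the 2-fold test gave 636 and 1164 and all clusters 2885 and 3301, and between adrenal medulla and ganglion 767 and 1314, and 2375 and 3572. The cause was not tested.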
